A study of Homo sapiens with 14 samples.

Results

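The genes of the sarcomere and of the terminally differentiated muscle fibre were followed here as open chromatin: TTN, NEB, ACTC1, ACTA1, CKM, DES, MYH8, MYH1, MYH2 and MYH3. Their chromatin was taken as every ATAC-seq peak overlapping 1 of 7 windows of the hg19 genome, which held 823 of the 1971391 peaks in the 14 peak lists of the study. With every list trimmed to the same length these peaks merged into 94 of 243086 separate sites. The windows ran on chromosome 2 from 179380000 to 179700000 for TTN, from 152330000 to 152620000 for NEB and from 220260000 to 220310000 for DES. They ran on chromosome 15 from 35060000 to 35110000 for ACTC1, on chromosome 1 from 229550000 to 229590000 for ACTA1 and on chromosome 19 from 45800000 to 45850000 for CKM. The window on chromosome 17 from 10190000 to 10580000 was taken for MYH8, MYH1, MYH2 and MYH3 together. In RefSeq order the neighbours of these genes are PLEKHA3 and CCDC141 for TTN, GJD2 and AQR for ACTC1, CCSAP and NUP133 for ACTA1, MARK4 and KLC3 for CKM, and DNPEP and SPEG for DES. The myosin genes stand in the order MYH13, MYH8, MYH4, MYH1, MYH2, MYH3, followed by SCO1. No annotation of the hg19 build was used, so a site is placed in a window and not assigned to a gene, exon or promoter.

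The study measured accessible chromatin by ATAC-seq, in which the Tn5 transposase cuts open DNA, in 7 groups of 2 libraries with 100000 cells each. LHCN, an immortalised human myoblast line, was studied 72 hours into overexpression of PAX3-FOXO1, the fused transcription factor found in alveolar rhabdomyosarcoma, or of an empty vector. RH30 comes from such a tumour and carries the fusion natively. It received the KDM4 histone demethylase inhibitor QC6352 at 200 nM or 0.1% DMSO, or was transduced with hairpins labelled shKDM4B-813, shKDM4B-814 or shCtrl, also for 72 hours. Each genotype is 1 line, and the labels do not say whether the 2 libraries of a group came from separate cultures, so p-values cover the variation among these libraries alone, part or all of which may be technical.

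The hairpin labels carry a conflict that touches every hairpin result. In 8 of 14 libraries the peak names inside the list carry the group of the label, and in the 6 hairpin libraries they carry another. The libraries labelled shKDM4B-813 hold peaks named sh814, those labelled shKDM4B-814 hold peaks named shCtrl, and those labelled shCtrl hold peaks named sh813. Across the genome, the overlap of each trimmed list with the DMSO lists, as a Jaccard index of shared regions, was 0.533 and 0.526 in the libraries labelled shKDM4B-813, 0.581 and 0.561 in those labelled shKDM4B-814 and 0.446 and 0.448 in those labelled shCtrl. The groups below keep the labels, and the numbers of gained, lost, higher and lower ranked regions are also given by the names inside the lists.

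The sarcomere is the contractile unit of striated muscle, in which myosin thick filaments slide along actin thin filaments. TTN spans it as a molecular spring, NEB runs along the thin filament, ACTA1 and ACTC1 are the skeletal and cardiac actins of that filament, and MYH8, MYH3, MYH1 and MYH2 encode heavy chains of myosin, perinatal, embryonic and, for the last pair, adult fast. DES is the intermediate filament that ties myofibrils together, and CKM is the muscle creatine kinase that regenerates ATP. MYOD family factors, which bind E-boxes, MEF2 factors, which bind AT-rich sites, and SRF, which binds CArG boxes, are known to drive these genes as myoblasts fuse.

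The promoter sequences show where such motifs stand next to some of these genes. RefSeq promoters (GRCh38.p14) were matched for 8 of 10 genes; DES and MYH3 were not matched. Given here, 5′ to 3′ on the strand of the gene, are the 250 bases before the start, with capitals marking matches on either strand to the E-box (CANNTG), the CArG box and the MEF2 site. The promoters printed are those with a MEF2 site or CArG box match. NEB, CKM and MYH2 were matched, hold neither and are not printed. TTN and both myosins lie in windows with fewer peaks in RH30 than in LHCN, as does NEB. The ACTC1 and ACTA1 windows did not pass that test. ACTC1 has its strongest sites open in both lines, and the strongest ACTA1 site is open in every RH30 library.
TTN: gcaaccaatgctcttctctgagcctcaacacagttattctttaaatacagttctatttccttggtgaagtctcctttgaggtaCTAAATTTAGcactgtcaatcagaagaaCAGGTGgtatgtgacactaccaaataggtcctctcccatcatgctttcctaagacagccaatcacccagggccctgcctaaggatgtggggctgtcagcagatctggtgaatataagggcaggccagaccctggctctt
ACTC1: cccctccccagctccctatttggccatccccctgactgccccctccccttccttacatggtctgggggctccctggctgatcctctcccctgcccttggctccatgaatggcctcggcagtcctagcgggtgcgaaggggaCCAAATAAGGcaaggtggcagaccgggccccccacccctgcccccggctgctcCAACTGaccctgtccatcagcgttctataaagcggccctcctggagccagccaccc
ACTA1: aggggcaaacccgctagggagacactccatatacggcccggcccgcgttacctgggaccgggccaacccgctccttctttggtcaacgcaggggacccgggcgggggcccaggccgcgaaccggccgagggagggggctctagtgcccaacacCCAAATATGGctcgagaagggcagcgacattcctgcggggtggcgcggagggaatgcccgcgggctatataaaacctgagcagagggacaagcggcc
MYH8: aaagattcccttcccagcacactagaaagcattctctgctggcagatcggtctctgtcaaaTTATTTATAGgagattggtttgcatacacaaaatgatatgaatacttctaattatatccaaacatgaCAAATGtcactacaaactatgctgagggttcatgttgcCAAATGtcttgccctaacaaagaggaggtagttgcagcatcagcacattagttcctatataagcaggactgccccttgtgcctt
MYH1: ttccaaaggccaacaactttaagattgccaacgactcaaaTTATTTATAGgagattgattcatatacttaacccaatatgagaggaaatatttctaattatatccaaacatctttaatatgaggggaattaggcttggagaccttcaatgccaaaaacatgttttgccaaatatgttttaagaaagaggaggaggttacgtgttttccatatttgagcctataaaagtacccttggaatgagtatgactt
The TTN promoter holds a MEF2 site match that begins 167 bases upstream of the start and an E-box match at 139 bases. ACTC1 holds a CArG box match at 109 bases and ACTA1 one at 97 bases. MYH8 and MYH1 share the same MEF2 site letters, at 189 and 210 bases, and in both a TATAAA match on the other strand lies inside them. Over the matched promoters, an E-box was found in 6 of 8, against 62.2% of 27305 RefSeq promoters of this length. A MEF2 site was found in 3 of 8 (TTN, MYH8, MYH1) against 2.90%, a CArG box in 2 of 8 (ACTC1, ACTA1) against 1.14%, and TATAAA in 5 of 8 against 11.1%. The only TATAAA match of MYH8 is that inside its MEF2 site. These matches are a description of the letters, and the sequences were not placed against the hg19 peaks.

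The deposited lists held 93488 to 176899 peaks, and the LHCN lists were longer (170390 to 175594) than all RH30 lists but that of the second QC6352 library. The peak names of all 14 lists carry the tag 150M, and whether this is a number of reads or fragments sampled is not stated, so read depth is unknown. To compare the lines, the strongest 93488 peaks of every list were kept by the authors' −log10 q. The strength of a site is given as its within-list percentile, where 100 is the strongest peak of the trimmed list and 0 marks a library with no peak there. Fold values are those of the authors' peak caller, over the background of the same library, and serve only to describe peaks. A library with fewer cells in a given state and one with weaker opening per cell cannot be told apart in such bulk data.

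The lines differed in these windows, and most of the difference lay in the myosin, titin and nebulin windows. At equal list length the 7 windows together held 25 to 37 peaks in the 10 RH30 libraries, with a mean of 32.3 ± 4.14 (SD), against 53 to 61 in the 4 LHCN libraries, with a mean of 57.75 ± 3.95 (SD). The myosin cluster window carried most of the difference. Both QC6352 libraries had 8 peaks there, the DMSO libraries 9 and 7, with 9 and 7 in those labelled shKDM4B-813, 9 and 6 in those labelled shKDM4B-814, and 6 and 5 in those labelled shCtrl. In LHCN the window held 25 and 25 peaks with PAX3-FOXO1 and 25 and 21 with vector, so that the lines did not overlap.

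The mean over the myosin cluster was 7.4 ± 1.43 peaks in RH30 (SD, n = 10) and 24 ± 2 in LHCN (SD, n = 4). This difference of -16.6 peaks had an exact two-sided permutation p of 0.000999, the smallest that 1001 splits can give, and an adjusted p of 0.0054 over all 100 kb tiles of the genome and the windows. The NEB window held 1.9 ± 0.876 peaks in RH30 (SD, n = 10) and 5 ± 1.41 in LHCN (SD, n = 4), again without overlap (exact permutation adjusted p = 0.0054). The TTN window held 3.4 ± 1.71 peaks in RH30 (SD, n = 10) and 9.25 ± 2.99 in LHCN (SD, n = 4), and a library of each line met at 6 peaks (exact permutation adjusted p = 0.00951). In the genome 15.3% of 100 kb tiles were lower in RH30 without overlap and 7.23% were higher without overlap.

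The actin, desmin and creatine kinase windows did not pass the test. The DES window averaged 9.9 ± 2.33 peaks in RH30 and 10.25 ± 1.26 in LHCN, the ACTC1 window 4.7 and 4.75, and the ACTA1 window 1.9 and 2.5. The CKM window had the opposite sign, with 3.1 ± 0.994 peaks in RH30 and 2 ± 0 in LHCN (exact permutation p = 0.0579, adjusted p = 0.119). Across the genome 27.5% of 100 kb tiles were lower in RH30 at an adjusted p below 0.05 and 10.5% were higher, beside 3 of 7 windows lower and none higher, and windows and tiles differ in length. The windows that passed are also the longest, at 390 kb for the myosins, 320 kb for TTN and 290 kb for NEB. The others are 40 to 50 kb long, so the genes held and the window length cannot be told apart. Without the 6 hairpin libraries the same 3 windows kept the sign, with differences of -16 peaks for the myosins, -2.5 for NEB and -4.5 for TTN. No window passed then, at adjusted p-values of 0.0818, 0.0818 and 0.149 in that order, in a design whose smallest p is 0.0286. The CKM window, higher in RH30 by 1.25 peaks, had the same exact permutation adjusted p of 0.0818.

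**Figure D1:**
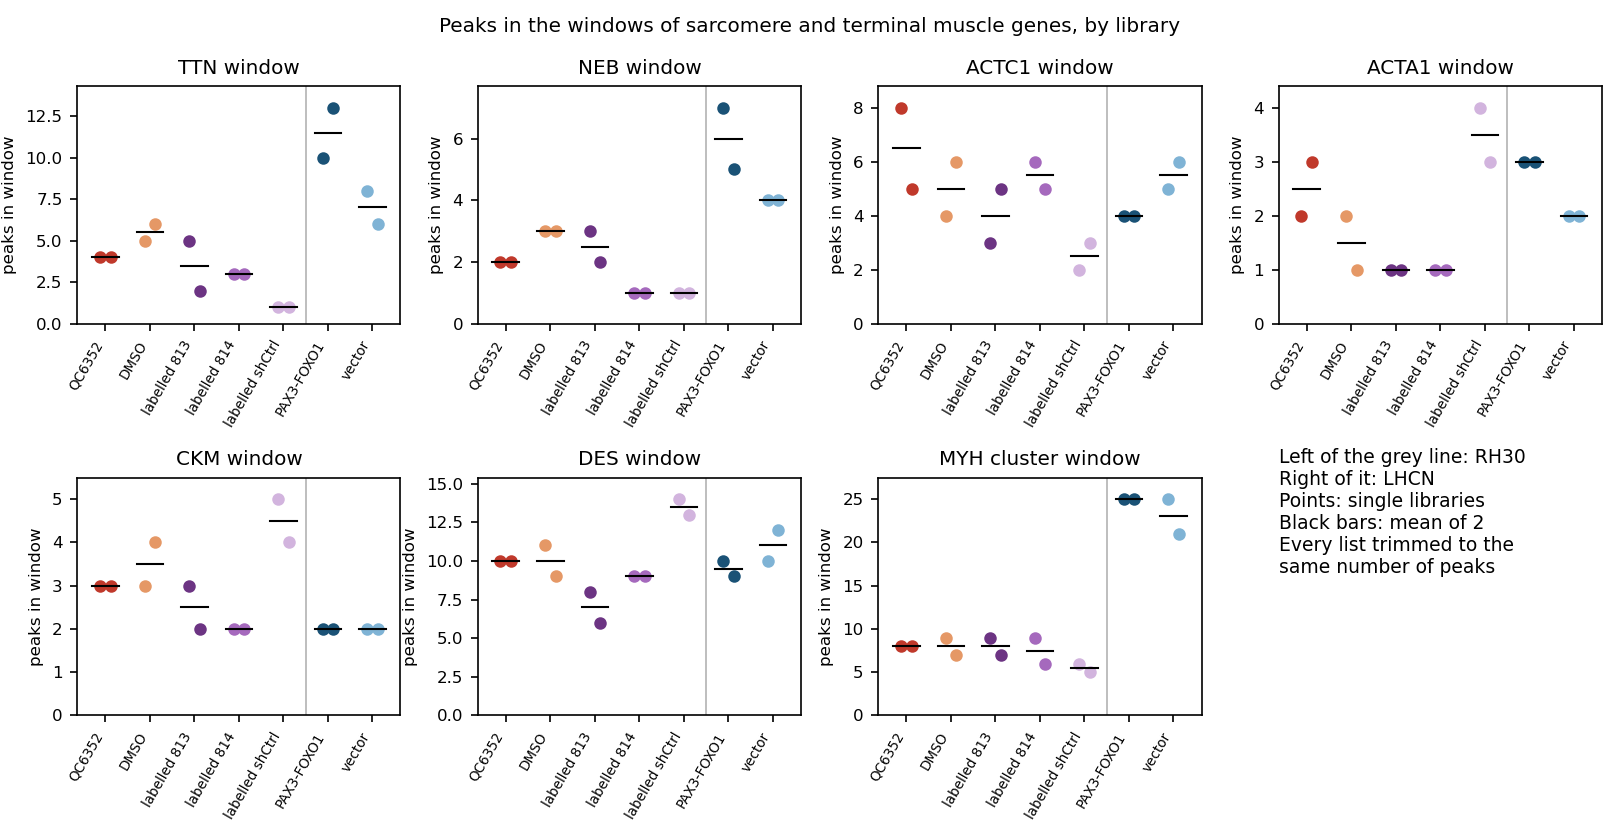
Number of peaks in each of the 7 windows, by library (points) with the mean of 2 (bars), after trimming every list to 93488 peaks. The groups left of the grey line are RH30 and those right of it LHCN, and the RH30 libraries lie at 5 to 9 peaks in the myosin cluster window against 21 to 25 in LHCN.

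Taken site by site, 15 of 94 sites (16.0%) were held more often by LHCN libraries, against 7.32% of all sites called so in the genome, and 2 of 94 (2.13%) more often by RH30, against 2.72%. The test was Fisher's exact test of presence, two-sided, with Benjamini-Hochberg adjustment over all 243086 sites and a threshold of 0.05. Of the 15 sites, 6 lay in the myosin cluster window, 4 in the TTN window, 3 in the NEB window and 1 each in the ACTC1 and ACTA1 windows, while the CKM and DES windows had none. In 10 of them none of the 10 RH30 libraries and all 4 LHCN libraries held the site (p = 0.000999, adjusted exact p = 0.0135). In the other 5 a single RH30 library also held it, at an adjusted p of 0.0498, close to the threshold, and leaving out any 1 library left 10 to 12 sites. Each library counted as 1 observation although RH30 libraries under 5 treatments share 1 line. The DMSO and the vector libraries alone were compared over a separate set of 187538 regions, not over the 243086 sites. In the windows 23 of these regions were held by neither DMSO library and both vector libraries, against 18.8% of the set. The other way round there were 5, against 6.64%. How many regions of the set lay in the windows is not given, so 23 and 5 are counts without a share.

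The strongest site seen in LHCN alone lay in the TTN window, on chromosome 2 from 179417681 to 179418148. No RH30 list held a peak there, even before trimming, and its percentile in LHCN was 78.2 and 83.7 with PAX3-FOXO1 and 85.2 and 80.9 with vector. Another TTN site, from 179387638 to 179388738, stood at 79.1 and 65.9 with PAX3-FOXO1 and at 73.5 and 58.7 with vector, and another, from 179689903 to 179690199, at 32.7 and 59.7 with PAX3-FOXO1 and at 56.6 and 66.9 with vector. The deposited RH30 lists held no peak at any of these 3 sites. In the myosin cluster window the strongest such site lay from 10283777 to 10284361. A single deposited RH30 list, labelled shKDM4B-813, held a weak peak there with a fold of 4.46, while the percentiles in LHCN were 73.4 and 77.3 with PAX3-FOXO1 and 84.4 and 87.3 with vector. The NEB site from 152431861 to 152432217 was in no deposited RH30 list, and in LHCN it stood at 78.6 and 75.2 with PAX3-FOXO1 and at 64.3 and 55.5 with vector.

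Both sites that were higher in RH30 were found in all 10 RH30 libraries and in no trimmed LHCN list. The CKM site, on chromosome 19 from 45803644 to 45804285, had percentiles of 87.5 and 46.5 with QC6352, 69.7 and 78.0 with DMSO, 67.9 and 61.1 in the libraries labelled shKDM4B-813, 58.1 and 75.6 in those labelled shKDM4B-814, and 81.1 and 87.1 in those labelled shCtrl. It was also the strongest site of its window, and a single deposited vector list held a peak of fold 5.91 there. The other site lay in the myosin cluster window from 10527995 to 10528696. Its percentile was 49.2 and 14.8 with QC6352, 88.2 and 76.4 with DMSO, 72.2 and 80.7 in the libraries labelled shKDM4B-813, 90.2 and 89.0 in those labelled shKDM4B-814, and 93.5 and 88.7 in those labelled shCtrl. In LHCN both deposited PAX3-FOXO1 lists held a weak peak there, of fold 7.23 and 6.01, and neither vector list did.

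**Figure D2:**
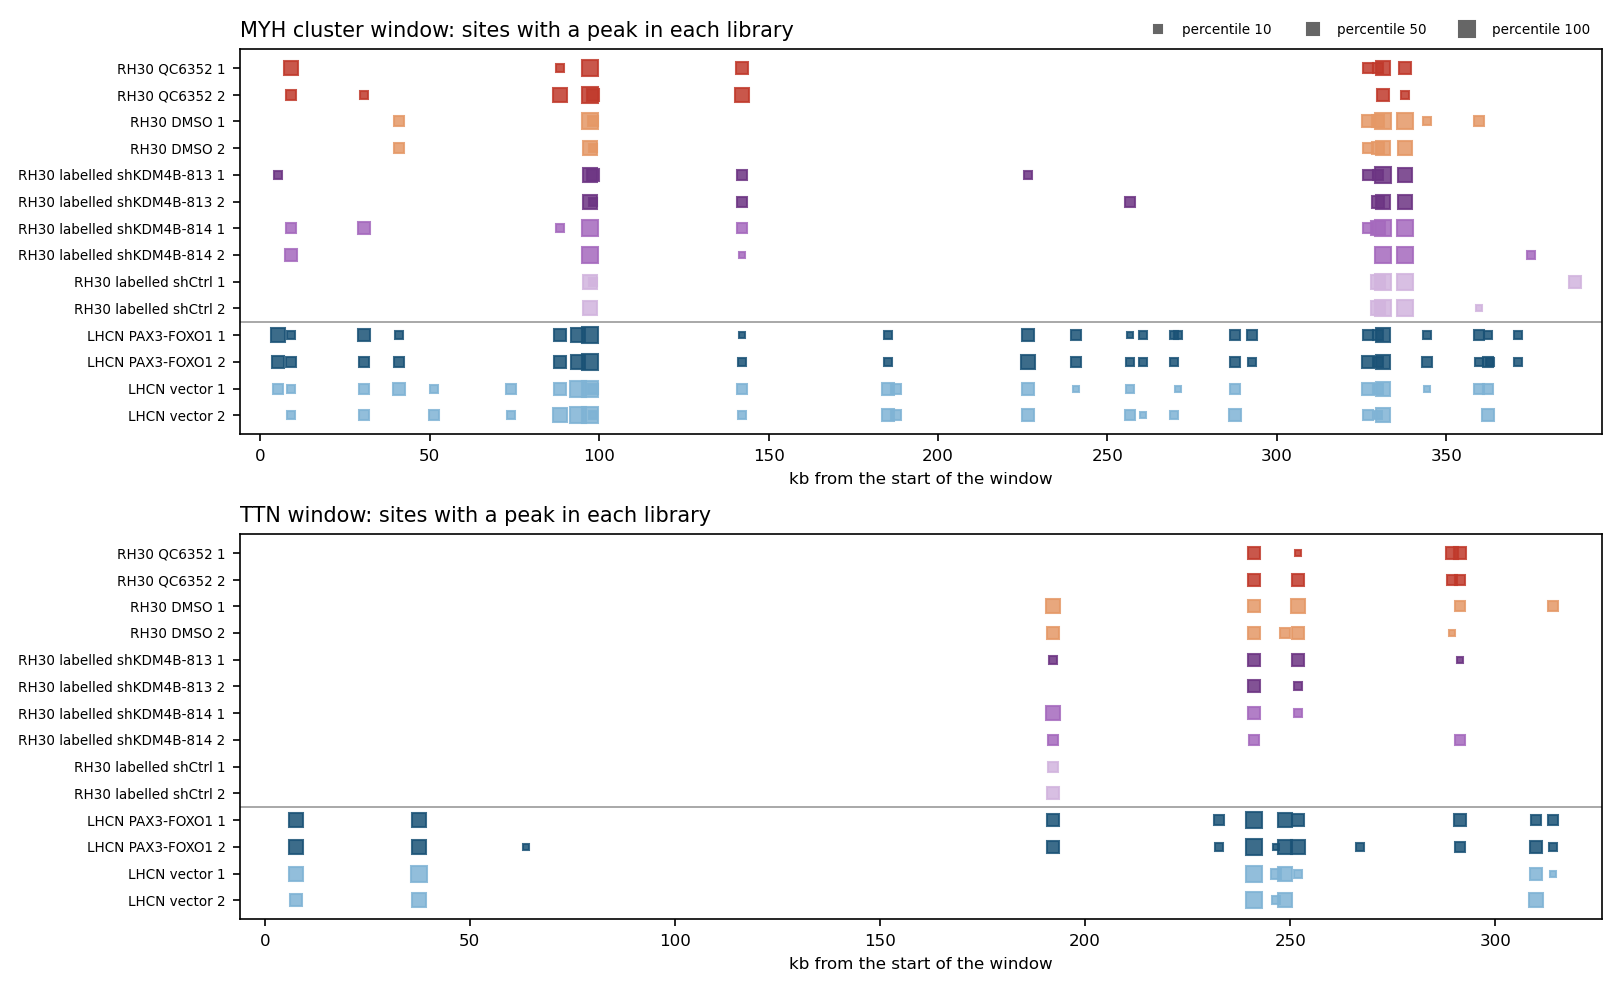
Sites with a peak in the myosin cluster and TTN windows, by library (rows) and by distance in kb from the start of the window; marker size grows with the within-list percentile in lists trimmed to 93488 peaks. RH30 rows are above the grey line and LHCN rows below it, and of the sites that passed Fisher's exact test as higher in LHCN 6 lie in the myosin cluster window and 4 in the TTN window.

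Other sites were shared by the lines. In all 14 libraries 10 of 94 sites held a peak (10.6%, against 9.68% of all sites), of which 5 lay in the DES window, 2 in the ACTC1 window, 2 in the myosin cluster window and 1 in the NEB window. The most strongly placed of all was the DES site on chromosome 2 from 220304092 to 220304742, with a median percentile of 92.5. Its percentile was 48.2 and 83.2 with QC6352, 95.9 and 96.8 with DMSO and 91.6 to 95.9 in the 6 hairpin libraries. In LHCN it was 75.9 and 72.4 with PAX3-FOXO1 and 73.5 and 73.5 with vector, below all RH30 libraries but the first with QC6352. The folds at this DES site were 22.2 and 26.9 with PAX3-FOXO1 and 32.4 and 33.4 with vector, against 6.55 to 32.4 in RH30. The lower percentile in LHCN is thus a place within longer lists of strong peaks and does not mean a lower fold.

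The ACTC1 window had its strongest site from 35086810 to 35088508, at a median percentile of 86.5, with 84.1 and 83.4 under QC6352, 93.0 and 93.5 under DMSO, 83.9 and 92.6 with PAX3-FOXO1 and 90.4 and 89.5 with vector. In the myosin cluster the strongest was from 10287243 to 10287869, at a median of 86.6, and the NEB window had it from 152590264 to 152591108, at 65.1. The strongest TTN site, from 179621125 to 179621961, stood in RH30 at 64.7 and 64.6 with QC6352 and 52.4 and 54.4 with DMSO, and in LHCN at 94.8 and 92.6 with PAX3-FOXO1 and 89.3 and 89.4 with vector. It was absent from both libraries labelled shCtrl. ACTA1 had its strongest site from 229569528 to 229571133, at a median of 70.2: all 10 RH30 libraries held it, and of the LHCN libraries only those with PAX3-FOXO1, at 53.2 and 40.9. In the deposited lists 1 vector library also held it, with a fold of 6.25 against 14.2 and 15.2 with PAX3-FOXO1.

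With PAX3-FOXO1 in LHCN the shares of gained and lost regions in these windows were close to or below those of the genome. With the 4 LHCN lists trimmed to 170390 peaks, 135 regions lay in the windows and 72 were present in all 4 libraries (53.3%, against 47.7% of all regions). Regions gained with PAX3-FOXO1, present in both fusion libraries and neither vector library, numbered 8 (5.93%), against 8.13% of all regions. Regions lost numbered 11 (8.15%), against 8.44%. A rule of 2 libraries against 2 has no p below 0.33, so these are counts without a test. Peak numbers overlapped between the groups in all 7 windows, with 19 ± 4.24 with PAX3-FOXO1 and 16.5 ± 2.12 with vector (SD, n = 2 each) in the TTN window and 37 ± 1.41 and 37 ± 0 in the myosin cluster window. In the genome 22.4% of 100 kb tiles were higher with PAX3-FOXO1 without overlap and 23.9% were lower.

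The strongest gained site lay in the TTN window, on chromosome 2 from 179572176 to 179572531. PAX3-FOXO1 libraries held it at percentiles of 76.9 and 77.1, with folds of 15.5 and 20.3, and no vector library held a peak there. Of the 10 RH30 libraries, 8 also held it in the deposited lists, all but both with QC6352. In the myosin cluster window the gained regions began at 10482588 (percentiles 63.2 and 56.0), 10561222 (58.8 and 51.2), 10552872 (35.6 and 49.9), 10528237 (44.8 and 20.1) and 10338461 (29.7 and 20.1). The NEB window gained regions at 152619207 (70.0 and 53.6) and 152424439 (17.5 and 40.2). The region from 10528237 to 10528611 is the only one of these 8 that all 10 RH30 libraries held, and it lies inside the RH30 site described above.

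Gained regions stood higher in their lists than lost ones. Taking for each region the lower of the percentiles in the libraries that held it, the median was 43.4 over the gained regions in the PAX3-FOXO1 libraries, against 23.4 for all gained regions, and 13.6 over the lost regions in the vector libraries, against 20.0 for all lost regions. The 5 lost regions with the highest such value were ACTC1 regions from 35086137 to 35086457 (31.6 and 29.3) and from 35104674 to 35104917 (29.2 and 31.7), an NEB region from 152579197 to 152579453 (31.2 and 28.9), a myosin cluster region from 10289256 to 10289630 (26.5 and 31.6) and a DES region from 220307382 to 220307899 (37.5 and 17.0). No deposited list of the opposite group held a weaker peak at any gained or lost region. The TTN, CKM and ACTA1 windows lost none. RH30 libraries held 4 of the 8 gained regions (50%, against 54.2% of all gained regions) and 2 of the 11 lost (18.2%, against 21.3%).

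Among the 72 regions held by all 4 LHCN libraries, the direction of the difference in rank varied by window. The rank was higher in both PAX3-FOXO1 libraries than in both vector libraries at 23 regions (31.9%), against 28.7% of such regions in the genome, and lower at 26 (36.1%), against 38.7%. In the TTN window 8 of 13 were higher and 1 lower, and in the NEB window 4 of 8 were higher and none lower. In the DES window 1 of 11 was higher and 7 were lower, in the ACTC1 window 1 of 7 was higher and 3 were lower, both CKM regions were lower, and in the myosin cluster window 8 of 29 were higher and 12 lower.

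The TTN region from 179671297 to 179671636 stood at percentiles of 70.7 and 60.8 with PAX3-FOXO1 and at 16.6 and 13.1 with vector, and the one from 179631786 to 179632842 at 79.7 and 81.0 with PAX3-FOXO1 and at 57.0 and 33.5 with vector. The NEB region from 152416705 to 152417251 stood at 83.0 and 80.6 with PAX3-FOXO1 and at 61.2 and 56.7 with vector. Lower ones included the DES region from 220271326 to 220272002, at 72.8 and 78.7 with PAX3-FOXO1 and 90.0 and 87.5 with vector, and the ACTC1 region from 35085065 to 35085777, at 13.9 and 20.3 with PAX3-FOXO1 and 60.6 and 50.8 with vector. These regions were chosen as examples after their values were seen.

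Leaving out a single LHCN library moved the fusion counts. Gained regions numbered 18 without the first PAX3-FOXO1 library and 13 without the second, and lost regions 19 without the first vector library and 17 without the second. A region then needed a peak in only 1 library of the group that held it, or absence from only 1 of the other. These counts could therefore only stay or rise.

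QC6352 gave as many gained as lost regions in these windows. With the 4 lists trimmed to 105136 peaks, 55 regions lay in the windows and 22 were present in all 4 libraries (40%, against 28.2% of all regions). Gained regions numbered 4 (7.27%), against 6.5% of all regions, and lost regions 4 (7.27%), against 7.28%. Each QC6352 library had 4 peaks in the TTN window, against 6 in each DMSO library, and in the NEB window each QC6352 library had 2, against 3 in each DMSO library. These were the windows without overlap, at the smallest exact permutation p of 0.33 for 2 libraries against 2, and 21.4% of all tiles were lower without overlap in this comparison. The other 5 windows overlapped, with 9.5 peaks with QC6352 and 8.5 with DMSO in the myosin cluster.

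The strongest lost region was the TTN site gained with the fusion, here from 179572203 to 179572498. Neither QC6352 library held a peak there in its deposited list, against percentiles of 71.9 and 66.1 and folds of 11.6 and 9.46 with DMSO. The libraries labelled shKDM4B-813 held folds of 6.48 and 4.92 there, those labelled shKDM4B-814 folds of 10.4 and 6.01, and those labelled shCtrl folds of 5.94 and 6.97. In the genome 1073 of the 12455 regions lost with QC6352 (8.62%) overlapped a region gained with the fusion, which is 5.63% of the 19045 regions gained. The other lost regions were an ACTC1 region from 35094530 to 35094925 (percentiles 56.1 and 53.0 with DMSO), a myosin cluster region from 10230903 to 10231201 (45.5 and 49.9) and an NEB region from 152573228 to 152573534 (19.4 and 22.3).

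Of the gained regions 3 lay in the myosin cluster window, from 10332184 to 10333253 (percentiles 59.1 and 68.8 with QC6352), from 10199087 to 10199328 (69.1 and 38.7) and from 10278483 to 10278937 (28.2 and 79.5). The last was in the CKM window, from 45805534 to 45805958, at 0.0656 and 23.0 with QC6352, where the first value lies at the very end of the trimmed list. All 3 myosin cluster regions were held by the 4 deposited LHCN lists. Leaving out a library loosens the rule, so that a count can only stay or rise. Gained regions numbered 8 and 9 without the first and the second QC6352 library, and 7 without the first DMSO library. Lost regions numbered 8 without the first DMSO library and 7 without the second.

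Shared regions ranked lower with QC6352 more often than higher. Of the 22, both QC6352 libraries ranked below both DMSO libraries at 11 (50%), against 28.7% of such regions in the genome, and above at 3 (13.6%), against 23.4%. The lower ones were 4 of 8 in the DES window, 3 of 4 in the myosin cluster window, 2 of 3 in the ACTC1 window and the single regions of the ACTA1 and NEB windows. The DES site from 220304092 to 220304742 stood at percentiles of 54.0 and 85.1 with QC6352 and 96.4 and 97.2 with DMSO in lists of this length, and the myosin cluster site from 10527995 to 10528689 at 54.9 and 24.2 with QC6352 and 89.5 and 79.0 with DMSO. The NEB site from 152590264 to 152590656 stood at 42.6 and 61.6 with QC6352 and 79.8 and 78.1 with DMSO.

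The 3 higher regions were TTN regions from 179621488 to 179621920 (68.6 and 68.5 with QC6352, 57.7 and 59.4 with DMSO) and from 179669469 to 179669900 (54.0 and 43.2 with QC6352, 2.85 and 12.7 with DMSO), and the myosin cluster region from 10287244 to 10287860 (89.9 and 96.9 with QC6352, 86.4 and 80.5 with DMSO). The QC6352 libraries differed between themselves at several lower sites, by 31.1 percentile points at the DES site and by 30.6 at the myosin cluster site. Such a difference within a group is as large as some differences between the groups.

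**Figure D3:**
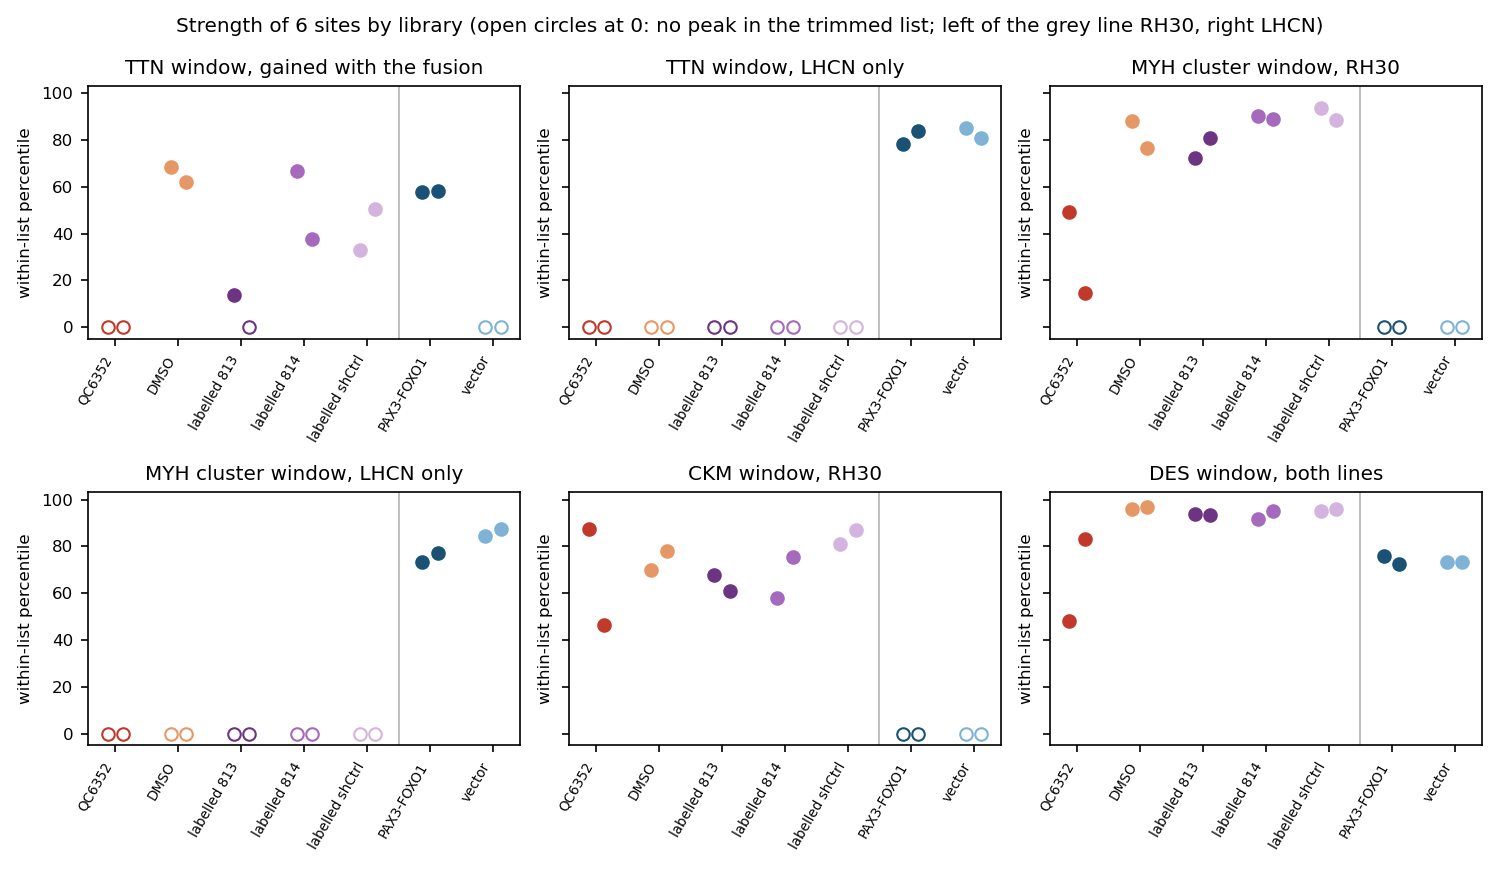
Within-list percentile of 6 sites by library, in lists trimmed to 93488 peaks, with open circles at 0 where the trimmed list holds no peak; RH30 groups are left of the grey line and LHCN groups right of it. The TTN site gained with the fusion is held at 57.9 and 58.2 with PAX3-FOXO1 and not with vector, and it is missing in both QC6352 libraries while both DMSO libraries hold it at 68.4 and 61.9.

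The hairpin libraries were compared in lists trimmed to 93488 peaks, and the comparisons share the libraries labelled shCtrl. In the libraries labelled shKDM4B-813, 3 of 52 regions were gained (5.77%), against 12.4% of all regions, and 2 were lost (3.85%), against 7.98%. In the libraries labelled shKDM4B-814, 4 of 51 regions were gained (7.84%), against 6.73%, and 2 were lost (3.92%), against 6.78%. By the names inside the lists, sh813 against shCtrl gave 2 gained and 4 lost of 51 regions, against 6.78% and 6.73% of all regions. By those names sh814 against shCtrl gave 1 gained and 2 lost of 45, against 6.12% and 3.3%. With the DMSO libraries as control, the libraries labelled shKDM4B-813 gained 1 region (against 7.93% of all regions) and lost 4 (6.65%), and those labelled shKDM4B-814 gained 2 (3.2%) and lost 5 (5.48%). The comparisons with DMSO used separate sets of regions. How many of those lay in the windows is not given, so these are counts without a share.

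The TTN region from 179621576 to 179621926 stood at percentiles of 49.0 and 57.9 in the libraries labelled shKDM4B-813 and of 55.3 and 29.8 in those labelled shKDM4B-814, and no library labelled shCtrl held it. The myosin cluster region from 10332498 to 10333249, also absent from the libraries labelled shCtrl, stood at 36.0 and 42.8 in the libraries labelled shKDM4B-813 and at 41.9 and 7.11 in those labelled shKDM4B-814. Each counts as gained under either KDM4B label because both comparisons use the same pair of libraries labelled shCtrl. By the names inside the lists these regions were present with sh814 and with shCtrl and absent with sh813, so that they count as lost with sh813. The other gained regions were a TTN region from 179632447 to 179632839 in the libraries labelled shKDM4B-813 (46.0 and 21.5), and, in those labelled shKDM4B-814, a myosin cluster region from 10199093 to 10199333 (37.2 and 54.3) and an ACTC1 region from 35094570 to 35094879 (25.3 and 23.5).

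The CKM region from 45848248 to 45849113 stood at percentiles of 7.8 and 26.8 in the libraries labelled shCtrl and was absent from all 4 with a KDM4B label, so that it counts as lost under either label. By the names it was present with sh813 alone and counts as gained there. A DES region from 220281853 to 220282392 (6.68 and 26.0 in the libraries labelled shCtrl) was lost in the libraries labelled shKDM4B-813, and a CKM region from 45841896 to 45842216 (33.7 and 56.1 in the libraries labelled shCtrl) in those labelled shKDM4B-814. Leaving out a library again loosens the rule, so that these counts could only stay or rise. Lost regions numbered 12 in the libraries labelled shKDM4B-813 and 13 in those labelled shKDM4B-814 without the second library labelled shCtrl, and 6 in either without the first. Without the first library labelled shKDM4B-813, 6 were lost there. Gains numbered 7 without the first and 10 without the second library of either KDM4B label, and 5 in the libraries labelled shKDM4B-813 without the second labelled shCtrl.

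**Figure D4:**
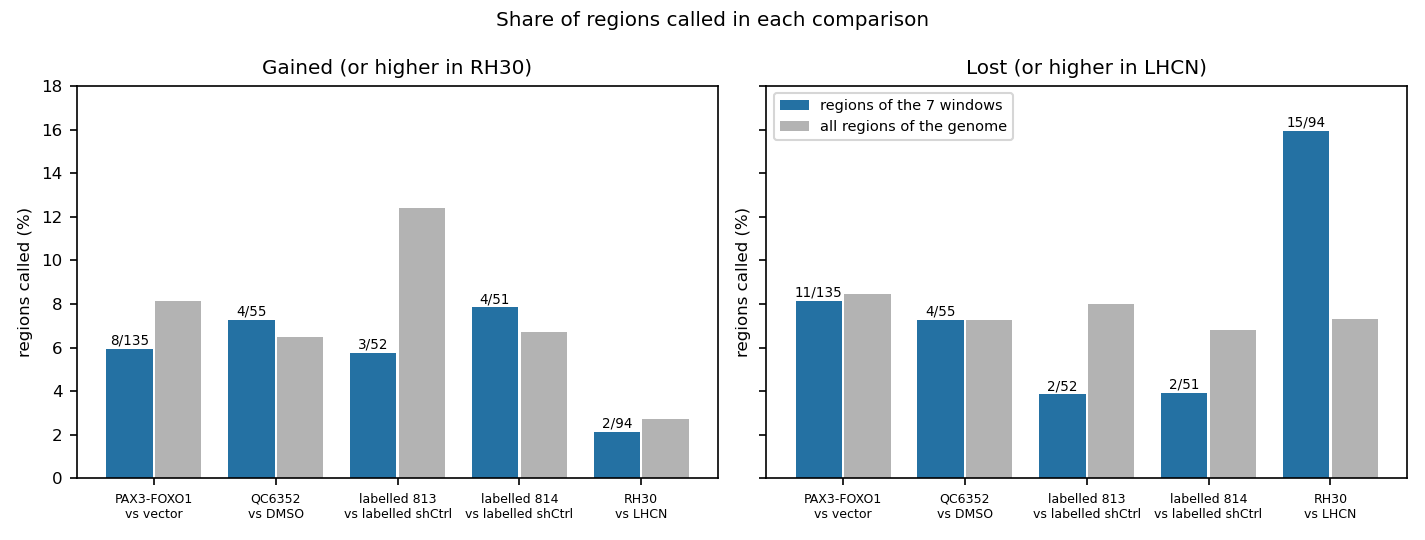
Share of regions called in each comparison, for the regions of the 7 windows and for all regions of the genome, as gained (or higher in RH30, left panel) and lost (or higher in LHCN, right panel). Numbers over the bars give the regions called of those in the windows, and the bar of 15 of 94 sites higher in LHCN (16.0%) stands beside 7.32% of all sites, whereas the other shares in the windows are below 9%.

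By window, the TTN window held 5 and 2 peaks in the libraries labelled shKDM4B-813 and 3 and 3 in those labelled shKDM4B-814, against 1 and 1 in those labelled shCtrl. The DES window held 8 and 6 peaks in the libraries labelled shKDM4B-813 and 9 and 9 in those labelled shKDM4B-814, against 14 and 13 in those labelled shCtrl. The ACTA1 window likewise held 1 peak in each library with a KDM4B label and 4 and 3 in those labelled shCtrl. The CKM window held 3 and 2 peaks in the libraries labelled shKDM4B-813 and 2 and 2 in those labelled shKDM4B-814, against 5 and 4 in those labelled shCtrl. In the libraries labelled shKDM4B-813 the NEB window (3 and 2 peaks, against 1 and 1 in those labelled shCtrl) and the myosin cluster window (9 and 7, against 6 and 5) were also higher, and in those labelled shKDM4B-814 the ACTC1 window was (6 and 5, against 2 and 3). Windows without overlap thus numbered 3 higher and 3 lower of 7 in the libraries labelled shKDM4B-813, and 2 higher and 3 lower in those labelled shKDM4B-814. Each had no overlap at the smallest p of 0.33, and in the genome 42.3% of tiles were higher and 11.0% lower without overlap in the libraries labelled shKDM4B-813, and 31.2% and 9.86% in those labelled shKDM4B-814. By the names inside the lists, sh813 is the pair labelled shCtrl and shCtrl the pair labelled shKDM4B-814. The TTN and ACTC1 windows were then lower with sh813 than with shCtrl, and the DES, ACTA1 and CKM windows higher. In that direction 31.2% of tiles were lower and 9.86% higher. The pair named sh814, labelled shKDM4B-813, did not repeat this against shCtrl. Its DES window was lower (8 and 6, against 9 and 9) and its NEB window higher (3 and 2, against 1 and 1). All other windows overlapped, and tile shares for this pair are not given. At the same list length the DMSO libraries held 5 and 6 peaks in the TTN window and 11 and 9 in the DES window. They held 4 and 6 in the ACTC1 window, 2 and 1 in the ACTA1 window and 3 and 4 in the CKM window.

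Of the 15 regions shared by the libraries labelled shKDM4B-813 and shCtrl, 11 ranked lower in the libraries labelled shKDM4B-813 (73.3%), against 33.0% of such regions in the genome, and none higher, against 25.2%. They included the DES site from 220304146 to 220304689, at 93.9 and 93.4 in the libraries labelled shKDM4B-813 and at 95.1 and 95.9 in those labelled shCtrl, and the ACTA1 site from 229570292 to 229571133, at 59.8 and 62.1 in the libraries labelled shKDM4B-813 and at 80.2 and 90.7 in those labelled shCtrl. Of the 17 regions shared by the libraries labelled shKDM4B-814 and shCtrl, 3 ranked lower (against 25.6%) and 2 higher (against 23.5%). By the names inside the lists, 2 of 17 ranked lower with sh813 than with shCtrl (against 23.5%) and 3 higher (against 25.6%), and 7 of 18 ranked lower with sh814 (against 28.0%) and 2 higher (against 23.6%).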

How the data were processed

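ATAC-seq of 14 libraries was analysed from narrowPeak lists that the authors called separately on each library, as the peak names show. MACS2 2.1.1, SAMtools 1.3.1, Picard 1.65, BWA 0.7.12-r1039 and the hg19 build are named in the submitters' processing notes. The sources used here do not give the settings, the filters on reads or whether reads were shifted for Tn5. The authors deposited for each peak a score, which was not used, a fold ratio over background, used to describe and to break ties, −log10 p, not used, −log10 q, which ranked the peaks, and a summit offset. Lists hold only peaks above a limit (lowest −log10 q 2.00 to 2.60), so absence means that no peak passed it, and absence from a trimmed list only that none was among the peaks kept. With no read counts, no interval for depth can be given.

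Groups came from the sample titles. Lists were trimmed to the shortest of each experiment (170390, 105136 and 93488 peaks; 93488 for the lines), and peaks overlapping by at least 1 bp were merged into regions. Gained and lost regions needed presence in both libraries of a group and in neither of the other. The lines were compared with Fisher's exact test per region and with exact permutation over libraries of peak numbers per window and 100 kb tile. Python 3.11.15, NumPy 2.4.6 and pandas 2.3.3 were used. The calls were also run on simulated libraries, in which seeded regions were nearly always present in a group and absent from the other. That run does not show how often a rule of 2 libraries against 2 calls a region falsely. Alternatives were the lists as deposited, −log10 q of at least 10, the 50000 strongest peaks, peaks covering 50% of a region, other controls, pairs and single libraries left out. The groups by names inside the lists were an alternative chosen after seeing the data, as were the comparison of the lines without the hairpin libraries and that of ranks at shared regions.

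The genes, windows and tests were chosen with earlier results of these data known. Regions were named by rule: the region with the highest median percentile in each window, and up to 5 called regions per comparison and direction, ordered by the lower percentile among the libraries that held them; further regions named were chosen after their values were seen. Presence at gene starts and other sarcomere genes were not analysed here.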

Additional observations from a re-analysis of the deposited data

How the results depend on the processing

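With the 50000 strongest peaks of every list, counts of regions in the windows were 4 gained and 3 lost with PAX3-FOXO1, 1 gained with QC6352, 1 gained and 1 lost in the libraries labelled shKDM4B-814, and 9 sites higher in LHCN, with 5 windows past the threshold. With −log10 q of at least 10 they were 7 lost with PAX3-FOXO1, 1 gained with QC6352, 0 lost in the libraries labelled shKDM4B-813, 1 gained and 0 lost in those labelled shKDM4B-814, 1 site higher in RH30, 47 higher in LHCN, and 6 windows. List length is not equal in that setting, with 123409 to 139986 peaks in LHCN and 43219 to 77239 in RH30. Shares over all sites and tiles, and the direction of the windows, are not given for the alternative lists. Their counts therefore cannot be set beside the genome and are not read as a result about these windows. The lists as deposited gave 10 gained and 9 lost in the libraries labelled shKDM4B-813, 9 lost in those labelled shKDM4B-814, 0 sites higher in RH30 and 33 in LHCN; the LHCN lists are then longer. With 50% of a region covered, 0 were lost in the libraries labelled shKDM4B-813. Against DMSO libraries, 1 was gained (7.93% of all regions) and 4 lost (6.65%) in the libraries labelled shKDM4B-813, and 2 gained (3.2%) and 5 lost (5.48%) in those labelled shKDM4B-814. The counts against DMSO libraries have no share in the windows. Grouping by the names inside the lists gave 4 lost for sh813 and 1 gained for sh814. Without the 6 hairpin libraries no site and no window passed (0 in either direction), and no region of the genome could. Control libraries alone, over their separate set of 187538 regions, held 5 regions of the windows only in RH30 (against 6.64% of the set) and 23 only in LHCN (against 18.8%), without a test. Leaving out 1 library in turn gave 10 to 18 gained and 13 to 19 lost with PAX3-FOXO1, 4 to 9 and 6 to 8 with QC6352, 4 to 10 and 2 to 12 in the libraries labelled shKDM4B-813, 4 to 10 and 3 to 13 in those labelled shKDM4B-814, 2 sites higher in RH30 in each, 10 to 12 in LHCN, and 3 windows in each. Gained and lost counts could there only stay or rise, since the rule is looser. The balance of gained and lost regions changed direction in some settings. With PAX3-FOXO1 it went from 8 gained and 11 lost to 4 and 3 with the 50000 strongest peaks. The libraries labelled shKDM4B-813 went from 3 gained and 2 lost to 1 and 4 against DMSO libraries. Those labelled shKDM4B-814 went from 4 gained and 2 lost to 2 and 5. Grouped by the names inside the lists, sh813 gave 2 gained and 4 lost, and sh814 gave 1 and 2. The cause of these moves was not tested.

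The replicate numbers name libraries and no label says that they mark a shared culture or day. Asking for each call within pairs of the same number (the replicate block) gave the same counts for every comparison of 2 libraries against 2 by construction, with 8 gained and 11 lost for the fusion, and 2 sites higher in RH30, 10 in LHCN and 3 windows.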

Other observations

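Of the 94 sites, 25 were held by RH30 libraries alone, 26 by LHCN libraries alone and 43 by both lines, and 21 sites were held by a single library. The myosin cluster window had 3 of the sites of RH30 alone and 14 of LHCN alone, and the TTN window 1 and 7. The CKM window had 6 sites of RH30 alone and none of LHCN alone, the ACTC1 window 5 and 1, the DES window 5 and 1, and the ACTA1 window 4 and none. These counts depend on how many libraries each line has, 10 in RH30 and 4 in LHCN.

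A DES window site from 220309781 to 220310460 on chromosome 2 was held by both DMSO libraries, at percentiles of 52.4 and 63.3, and by 5 of the 6 hairpin libraries. No QC6352 library held it, and no PAX3-FOXO1 or vector library held it in the trimmed lists. It overlaps the end of the window through peaks of the libraries labelled shKDM4B-813 and shCtrl, whereas both DMSO peaks begin beyond that end, so it is not among the regions compared between QC6352 and DMSO.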
